A study of Mus musculus with 8 samples.

Results

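The 7 genes F13a1, Ms4a6c, Fn1, Ccr2, Ly6c2, Cfp and Lyz2 mark the monocyte lineage, and they were taken by symbol from the 27998 genes counted in single bone marrow cells. All 7 were found. They were followed across progenitor states and across 8 pools of mice. KL cells, which carry CD117 (c-Kit) and were depleted with antibodies against CD3, CD4, CD8, CD45R, CD11b, TER119 and GR1, were sorted from the bone marrow of female B6 mice 3 to 4 months old. CVT mice were born under specific-pathogen-free (SPF) conditions and were then kept for 1 month together with mice native to a conventional facility, while SPF mice stayed under SPF conditions. Each housing group had 10 mice in 4 pools of 2 or 3 animals, with pools 3, 4, 5 and 6 from CVT mice and pools 1, 2, 7 and 8 from SPF mice. No mouse carried a transgene or received a drug according to the labels. A pool, not a mouse or a cell, is the replicate throughout.

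Monocytes arise in bone marrow from granulocyte-monocyte progenitors (GMPs) through committed monocyte progenitors, which divide and then leave for blood. On this route they gain the surface protein Ly6C, encoded by Ly6c2, and the chemokine receptor CCR2, which classical monocytes use to exit the marrow. The other members serve the work of the mature cell: lysozyme (Lyz2) digests bacterial walls, properdin (Cfp) stabilises the alternative complement convertase, the A subunit of factor XIII (F13a1) cross-links fibrin, fibronectin (Fn1) is a matrix and adhesion protein, and Ms4a6c belongs to the MS4A family of membrane-spanning proteins. The antibodies of the sort bear on some of these genes, because the Gr1 epitope is shared by Ly6G and Ly6C and CD11b is carried by mature myeloid cells.

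Stretches of 250 bases upstream of the annotated starts are given for the 4 genes whose levels carry the results below, so that the sequence beside each gene can be seen. They are from RefSeq on mouse build GRCm38.p6, written 5′ to 3′ on the strand of the gene, and 6 of the 7 symbols matched an entry. Capitals mark matches on either strand to GAGGAAGT (a core for ETS factors such as PU.1) or TTNNGNAA (a loose form of the core for C/EBP factors), and the third motif searched, the core for interferon regulatory factors (GAAA, any 2 bases, GAAA), had no match in the windows of these 6 genes. Fn1 was not among them. None of the marked matches overlap.
Ly6c2 (chr15:75111972-75112221, minus strand): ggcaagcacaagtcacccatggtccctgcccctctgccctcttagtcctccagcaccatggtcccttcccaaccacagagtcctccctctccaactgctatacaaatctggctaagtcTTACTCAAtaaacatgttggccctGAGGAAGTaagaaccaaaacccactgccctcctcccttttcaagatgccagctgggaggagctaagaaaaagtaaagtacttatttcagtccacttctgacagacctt
Lyz2 (chr10:117282273-117282522, minus strand): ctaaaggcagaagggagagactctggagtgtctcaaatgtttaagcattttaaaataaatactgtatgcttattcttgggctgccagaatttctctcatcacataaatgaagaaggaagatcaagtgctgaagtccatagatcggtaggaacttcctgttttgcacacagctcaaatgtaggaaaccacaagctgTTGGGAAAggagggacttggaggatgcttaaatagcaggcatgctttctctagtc
Ms4a6c (chr19:11469118-11469367, plus strand): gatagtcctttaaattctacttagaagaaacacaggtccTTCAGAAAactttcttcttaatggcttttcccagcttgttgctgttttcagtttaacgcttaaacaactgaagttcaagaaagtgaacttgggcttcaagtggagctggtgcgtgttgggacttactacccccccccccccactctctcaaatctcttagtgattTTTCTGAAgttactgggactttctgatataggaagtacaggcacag
F13a1 (chr13:37050245-37050494, minus strand): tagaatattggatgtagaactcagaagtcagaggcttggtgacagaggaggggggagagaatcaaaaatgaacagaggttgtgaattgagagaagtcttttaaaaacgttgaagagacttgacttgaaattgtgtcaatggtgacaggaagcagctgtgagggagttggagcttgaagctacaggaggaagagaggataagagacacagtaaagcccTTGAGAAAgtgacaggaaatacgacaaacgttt
The Ly6c2 window held GAGGAAGT from 108 to 101 bases before the start, and a window of the same length at its other annotated start held it at 142 to 135 and again at 8 to 1. The windows overlap, and the match at 142 to 135 is the same site as that at 108 to 101. No other gene of the 6 had a match to GAGGAAGT, which 2.44% of 32851 single windows of that length held. TTNNGNAA was found in Ly6c2, Lyz2, Ccr2, Ms4a6c and at the F13a1 start shown, and not in Cfp, but 36.8% of all windows held it. The core for interferon regulatory factors was in 2.98% of all windows.

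The 8 pools held 29891 cells and 335844251 UMIs (unique molecular identifiers, each a counted transcript), with 19041749 to 59812346 UMIs in a pool and 2759 to 49732 in a cell. Levels are UMIs per 1000000 UMIs (CPM) of the summed cells of a class in a pool, given as mean ± SD over pools. Cells were grouped without using the 7 genes, and classes are called "-like" because their names rest on marker genes. Barcodes that occurred in at least 2 pools numbered 522, and they covered 1048 cells. Doublet calls covered only 0.308% of cells, which is too few for the caller to have worked, and no cell was removed as a doublet in the main results.

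Monocyte-like cells numbered 4040 and came from 3 clusters. Cluster 5 (1686 cells) was led by Irf8, Ly86, Il6st, Tifab and Csf1r and held 10 of 16 monocyte markers among its leading 100 genes. Clusters 8 (1543 cells) and 17 (811 cells) held 5 and 6 of the 16 beside genes of the cell cycle such as Aurkb, Ccnb2 and Cdc20, and cluster 17 held 6 GMP markers as well. The 2538 GMP-like cells were led by Mpo, Elane, Prtn3 and Ms4a3, and the 1653 Granulocyte-like cells by Ly6g, Ltf, Lcn2, Camp and Ngp. A further cluster of 583 cells, led by S100a4, Fn1, Lgals3, Cd74, H2-Aa and Lyz2, held 9 of 16 monocyte markers and 5 of 13 dendritic markers. It was given no cell type name and is called the S100a4/Lgals3 cluster. The 16 monocyte markers summed to 1601 to 2082 CPM in SPF and 1648 to 1820 CPM in CVT pools of Monocyte-like cells. The sums in that cluster were 4634 to 5718 and 4815 to 6062 CPM in the same order. Those in GMP-like cells were 1146.5 to 1532 and 1275 to 1457 CPM. The 11 granulocyte markers summed to far more in the S100a4/Lgals3 cluster, at 26875 to 54983.5 CPM in SPF and 27751 to 39257 CPM in CVT pools. In Granulocyte-like cells they summed to 332118 to 467159 and 317442 to 377267 CPM. The 9 GMP markers summed to 9456 to 10165 and 9566 to 12236 CPM in Monocyte-like cells. The name Monocyte-like is thus no call of mature monocytes.

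The S100a4/Lgals3 cluster had the highest mean level of all 7 genes, and for each gene its lowest pool lay above the highest pool of the class ranked next. The distance was small for some genes and very large for others. Compared with Monocyte-like cells the ratio of mean CPM was 2.29 for F13a1, 2.45 for Ms4a6c, 3.84 for Cfp, 5.11 for Ly6c2, 9.11 for Ccr2, 94.1 for Lyz2 and 388 for Fn1, and each was above 1 in 8 of 8 pools. Below this cluster the genes fell into different orders. These levels are a description of classes formed from the same cells and were not tested.

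**Figure D1:**
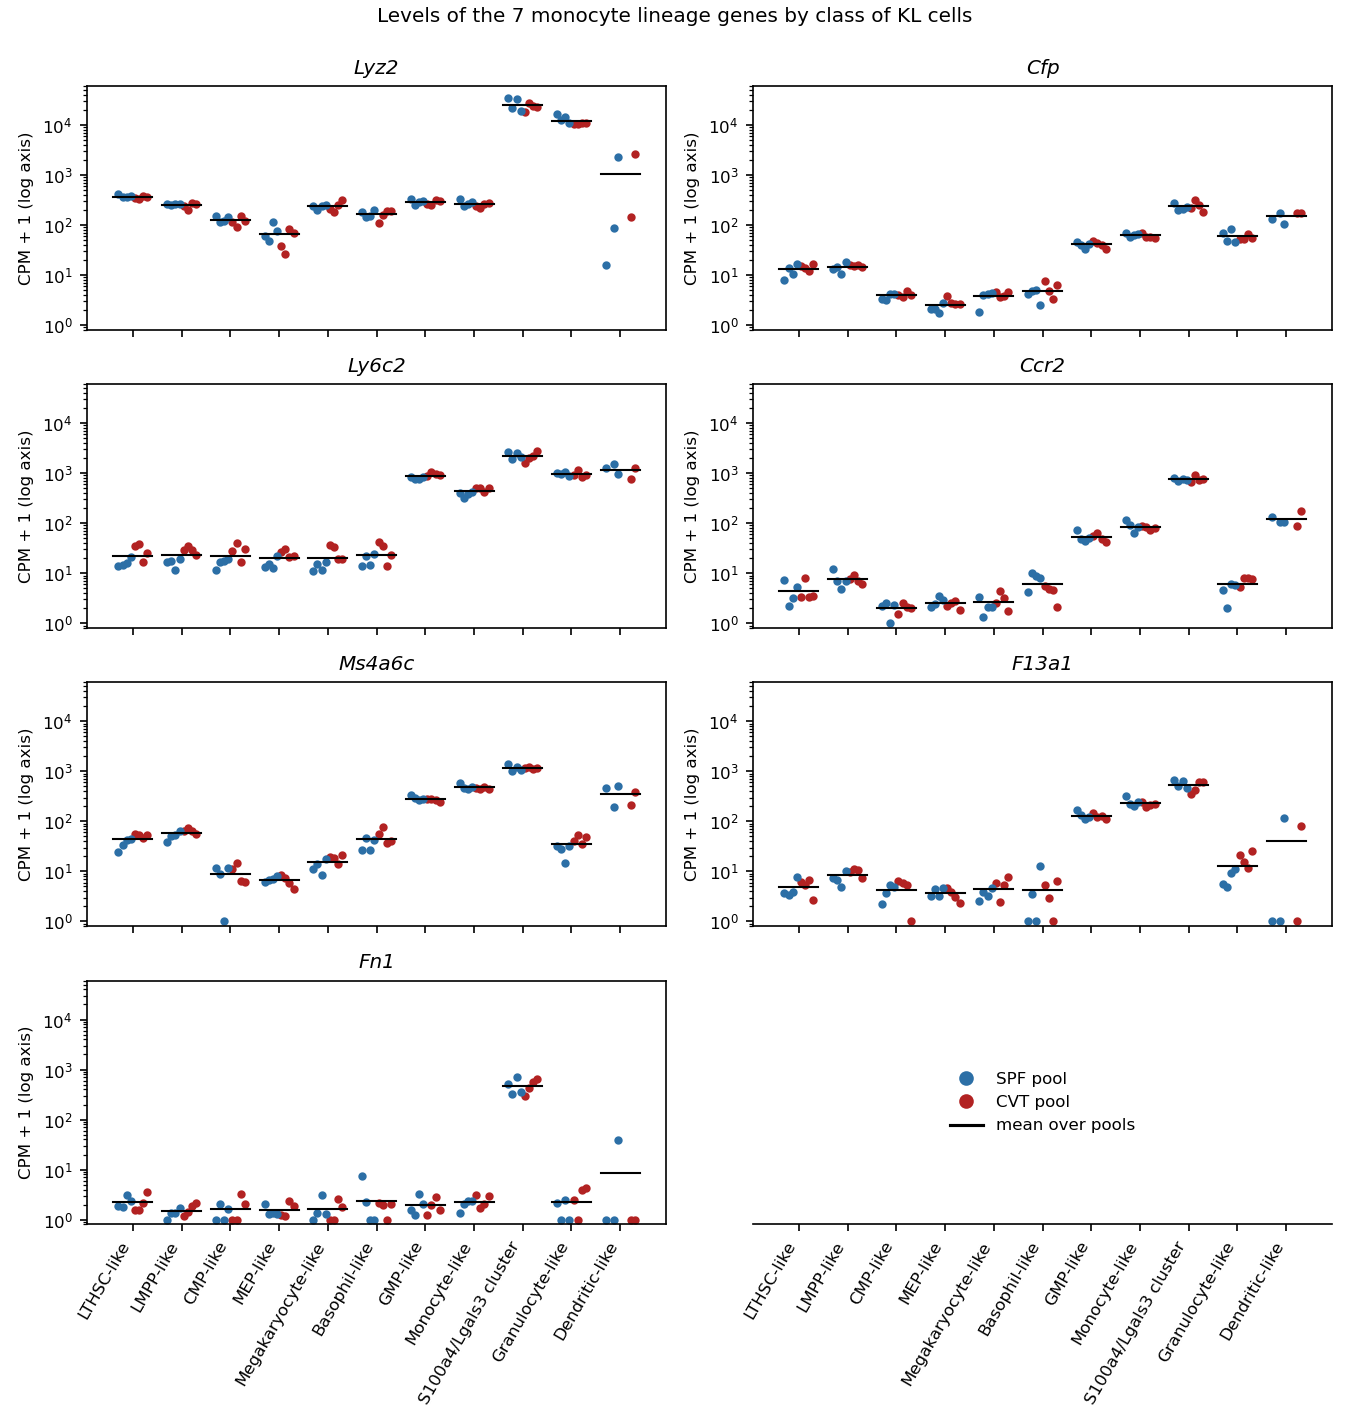
CPM + 1 of each of the 7 genes on a log axis (1 panel per gene) in 11 classes of KL cells, where each point is a pool coloured by housing and the line is the mean over pools. The S100a4/Lgals3 cluster stands highest in every panel, with Granulocyte-like cells next for Lyz2 and Monocyte-like cells next for Ms4a6c and F13a1, while Fn1 is near 0 in nearly every other class.

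Lyz2 was far higher in Granulocyte-like cells and the S100a4/Lgals3 cluster than in the other classes. Its level was 24929 ± 5886 CPM in the S100a4/Lgals3 cluster and 12231 ± 2363 in Granulocyte-like cells (SD, n = 8 pools), and the pool ranges of 18382 to 34080 and 10407 to 16918 did not meet. Monocyte-like cells had only 265 ± 33.4 CPM and GMP-like cells 286 ± 29.0, and the higher of these was the GMP-like level in 7 of 8 pools. LTHSC-like cells, named for markers of long-term stem cells, had more Lyz2 than either, at 366 ± 24.7 CPM, with every pool between 333 and 411. MEP-like cells, named for markers of megakaryocyte-erythrocyte progenitors and led by erythroid genes such as Car1, Ermap and Klf1, had 64.0 ± 28.7 CPM.

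This MEP-like level was not even over pools. It was lowest in CVT pool 4 (25.2 CPM) and highest in SPF pool 7 (116 CPM), which were also the pools with the least and the most Lyz2 in all KL cells (391 and 2667 CPM). In LTHSC-like cells those pools had 333 and 354 CPM. The LTHSC-like level was 5.72 times the MEP-like level and was higher in 8 of 8 pools. How much of either level was free RNA was not tested.

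Cfp, the only member of the alternative complement pathway among the 7, followed another order. After the S100a4/Lgals3 cluster (234 ± 42.7 CPM) came the 80 Dendritic-like cells with 151 ± 32.4 (n = 5 pools with at least 10 cells), again apart in every pool. Monocyte-like (60.9 ± 5.61), Granulocyte-like (58.1 ± 12.4) and GMP-like cells (39.8 ± 5.47) followed, with neighbouring pool ranges that overlapped. LMPP-like and LTHSC-like cells had 13.6 and 12.3 CPM, and MEP-like cells 1.56.

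Ly6c2 was high in the dendritic, granulocyte and GMP classes alike. The S100a4/Lgals3 cluster had 2206 ± 389 CPM, Dendritic-like cells 1158 ± 298, Granulocyte-like cells 960 ± 99.9 and GMP-like cells 875 ± 91.6, and the last 3 overlapped. Monocyte-like cells stood below them at 432 ± 71.2 CPM, a ratio to GMP-like cells of 0.493 that was below 1 in 8 of 8 pools. LTHSC-like, LMPP-like, CMP-like, Basophil-like, Megakaryocyte-like and MEP-like cells all lay between 19.5 and 22.5 CPM.

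Ccr2, the receptor for the monocyte chemokines Ccl2 and Ccl7, was low in granulocytes, stem cells and the erythroid branch. Its level was 757 ± 79.3 CPM in the S100a4/Lgals3 cluster, 168 in the 50 TNK-like cells (n = 2 pools), 119 in Dendritic-like, 83.1 ± 15.1 in Monocyte-like and 51.9 ± 10.2 in GMP-like cells. The next class, LMPP-like cells, had 6.68 CPM and did not overlap the GMP-like pools. Granulocyte-like cells had 4.96 CPM, so that the S100a4/Lgals3 cluster exceeded them 152-fold for Ccr2 but only 2.04-fold for Lyz2 and 2.30-fold for Ly6c2. Few ligands were counted, with a mean of 13.7 CPM of Ccl2 in the S100a4/Lgals3 cluster and 3 UMIs of Ccl7 in all cells.

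Ms4a6c and F13a1 shared the 2 classes with the highest levels. Ms4a6c measured 1172 ± 115 CPM in the S100a4/Lgals3 cluster, 479 ± 48.6 in Monocyte-like and 277 ± 27.0 in GMP-like cells. F13a1 measured 531 ± 113, 232 ± 38.5 and 130 ± 18.8 CPM in the same classes. For both genes the Monocyte-like level exceeded the GMP-like level in 8 of 8 pools, by 1.73 and 1.78 times. Dendritic-like cells (n = 5 pools) had 354 ± 147 CPM of Ms4a6c, above the GMP-like mean. Their F13a1 level of 39.5 ± 55.5 CPM was below the GMP-like mean and rests on 17 UMIs.

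Lower in the order they parted from each other. Ms4a6c was still counted at 56.9 CPM in LMPP-like and 43.5 CPM in LTHSC-like cells, above the 34.7 ± 11.9 of Granulocyte-like and the 5.79 of MEP-like cells. F13a1 had 7.50 CPM in LMPP-like and 3.93 CPM in LTHSC-like cells, against 2.68 in MEP-like cells.

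Fn1 was nearly limited to a single cluster. The S100a4/Lgals3 cluster had 478 ± 152 CPM (pool range 296 to 706), and it held 2135 of the 2407 Fn1 UMIs of all KL cells (88.7%). Dendritic-like cells had 7.73 CPM, which rests on 3 UMIs, and every other class was at 1.35 CPM or less.

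Levels differed inside the named classes as well. Cluster 7, led by Mpo, Ly6c2, Elane and Prtn3, had 413 ± 27.8 CPM of Ms4a6c, 191 ± 16.9 of F13a1, 79.0 ± 9.14 of Ccr2 and 56.6 ± 6.77 of Cfp. Cluster 14, led by Elane, Ms4a3, Rgcc and Gstm1, had 61.1 ± 10.9, 35.1 ± 10.1, 7.70 ± 2.47 and 11.95 ± 4.57 CPM of these genes. Both clusters carried Ly6c2 at a high level, at 824 ± 113 CPM in cluster 7 and 956 ± 85.0 in cluster 14. Cluster 7 was thus near the Monocyte-like clusters for Ccr2, which had 79.1, 79.9 and 101 CPM in clusters 5, 8 and 17. Among the same 3 clusters Ly6c2 had 231 ± 54.5, 525 ± 67.0 and 615 ± 140 CPM, lowest in the cluster that was not led by genes of the cell cycle.

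Granulocyte-like cells also held unlike clusters. Lyz2 measured 20744 ± 1715 CPM in the cluster led by Ifitm6, Ly6g and Ltf, 10366 ± 1699 in that led by Fcnb, Chil3 and Camp, and 2927 ± 563 in that led by Retnlg and Mmp8 (n = 7 pools). Ly6c2 had 1039, 1117 and 342 CPM in the same order. Ms4a6c ran the other way, with 14.6, 18.5 and 102 CPM, and F13a1 with 3.94, 10.3 and 30.7 CPM.

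Within the S100a4/Lgals3 cluster, 101 cells had a UMI of H2-Aa, an MHC class II gene, and 482 had none. H2-Aa was itself a leading gene of the cluster, and the split is a description made after the cluster had been seen. Cells without it had 2632 ± 147 CPM of Ly6c2 against 717 ± 409 in cells with it, a ratio of 3.67. Fn1 had 559 against 177 CPM, F13a1 627 against 199 and Lyz2 28170 against 15680, each higher in 8 of 8 pools without H2-Aa. Ccr2 showed no such order, with 758 CPM without and 914 CPM with H2-Aa, and was higher without it in only 2 of 8 pools. Ms4a6c (1209 and 1074 CPM) and Cfp (253 and 169 CPM) were higher without it in 6 and 7 of 8 pools.

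Shares of cells with a UMI were compared after each cell was thinned to 2759 UMIs, because the median cell had 5753 UMIs in the S100a4/Lgals3 cluster, 15475 in the Monocyte-like, 15928 in the GMP-like, 7171 in the Granulocyte-like, 5999 in the LTHSC-like and 18110 in the MEP-like class. Ms4a6c was seen in 90.6% of cells of the S100a4/Lgals3 cluster, 65.8% of Monocyte-like, 43.5% of GMP-like, 11.1% of LTHSC-like and 1.46% of MEP-like cells. Without thinning the Monocyte-like share was 94.1% and the MEP-like share 9.96%. Ccr2 was seen in 79.6% of the S100a4/Lgals3 cluster and in 18.7% of Monocyte-like cells, against 0.464% of MEP-like cells. Fn1 was seen in 58.7% of the S100a4/Lgals3 cluster but in 0.347% of Monocyte-like cells, beside 0.279% of MEP-like cells. Without thinning the Monocyte-like and MEP-like shares of Fn1 were 1.88% and 0.952%, and their difference was not tested. Lyz2 was seen in 63.4% of LTHSC-like cells, 48.4% of Monocyte-like cells and 13.1% of MEP-like cells.

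UMIs of at least 4 of the 7 genes were found together in 1748 thinned KL cells (5.85%). The S100a4/Lgals3 cluster had 87.3% such cells, and 19.4% of its cells had all 7 genes. The share was 19.9% in Monocyte-like, 15.1% in GMP-like and 1.45% in Granulocyte-like cells, and 0.0697% (3 cells) in MEP-like cells. Granulocyte-like cells had Lyz2, Ly6c2 and Cfp in 98.0%, 83.4% and 17.2% of thinned cells, and the other 4 genes in 4.96% or less.

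The source of a member's UMIs differed by gene when all pools were summed. Monocyte-like cells supplied 61.9% of F13a1, 57.3% of Ms4a6c, 45.9% of Ccr2 and 44.6% of Cfp UMIs. GMP-like cells were the largest source of Ly6c2 (38.9%), ahead of Monocyte-like cells (30.6%). Granulocyte-like cells supplied 50.02% of Lyz2 and the S100a4/Lgals3 cluster 31.0%, while Monocyte-like cells supplied 4.88%. Single pools departed from these sums. In SPF pool 7 Granulocyte-like cells held 32.2% of Ly6c2 UMIs, against 18.1% in Monocyte-like cells. More Ccr2 UMIs were held by the S100a4/Lgals3 cluster than by Monocyte-like cells in SPF pool 1 (41.4% and 34.7%), CVT pool 5 (43.8% and 32.8%) and SPF pool 7 (59.0% and 23.2%), and more Lyz2 UMIs than by Granulocyte-like cells in SPF pool 1 (46.6% and 42.4%).

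**Figure D2:**
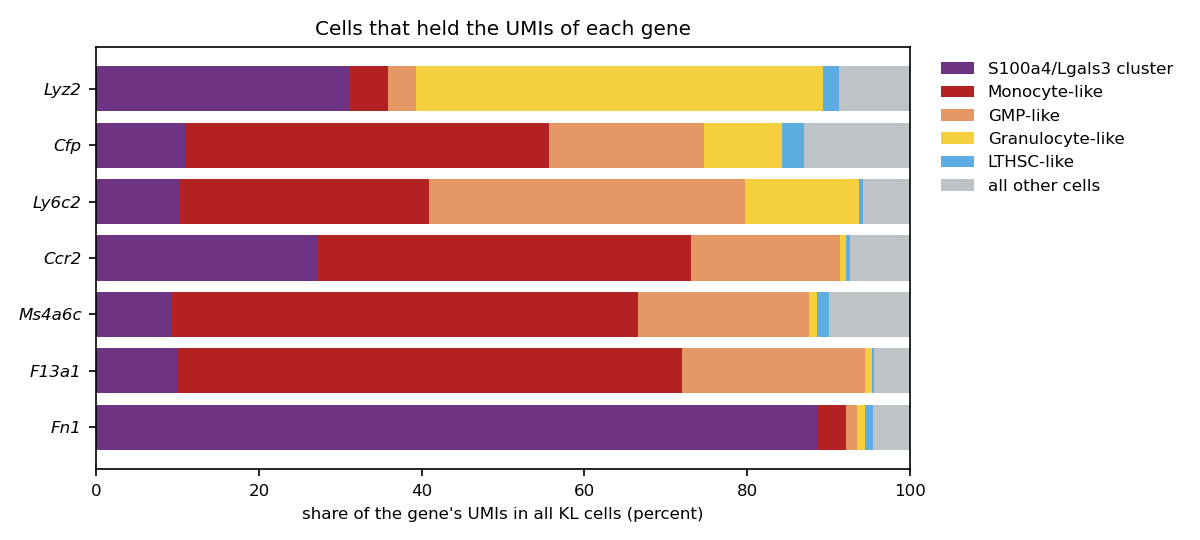
Percent of each gene's UMIs in all KL cells that came from each class, 1 stacked bar per gene. Lyz2 is mostly from Granulocyte-like cells and the S100a4/Lgals3 cluster, Fn1 mostly from that cluster, and F13a1 and Ms4a6c mostly from Monocyte-like cells.

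Several members have paralogs that a 3′ assay may split poorly. In the last 300 bases of the longest coding transcript, 29.9% of 50-base windows of Ly6c2 were also in Ly6c1, 21.9% of those of Lyz2 in Lyz1, and 9.16% of those of Ms4a6c in Ms4a6b. In all KL cells there were 344 UMIs of Ly6c1 against 94185 of Ly6c2, 903 of Lyz1 against 333963 of Lyz2, and 10464 of Ms4a6b against 52522 of Ms4a6c. How the counting treated such reads is not given in the sources used here.

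Over the 32 clusters and 4950 genes, the genes whose mean log level followed each member most closely were named as a description. F13a1 was followed by Tifab (r = 0.937), Csf1r (0.933) and Ly86 (0.897), Ms4a6c by Il6ra, Pkib and Csf1r (0.903 to 0.894), and Ccr2 by Hpse, Ly86 and Klrb1f (0.931 to 0.897). Ly6c2 was followed by Slpi, Hp and Shfm1 (0.942 to 0.899) and Cfp by Ctsh, Tyrobp and Nrp1 (0.956 to 0.925). Lyz2 was followed by Plaur, Plbd1 and Lgals3 (0.926 to 0.920) and Fn1 by Clec4a3, Clec4a1 and Naaa (0.921 to 0.870). Among the members, F13a1 was close to Ccr2 (0.890) and Ms4a6c (0.888), and Lyz2 was far from Ccr2 (0.370). The clusters share their libraries and differ in depth, so no p is given.

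The first comparison of housing used all KL cells summed per pool, where fewer cells of a type and less RNA per cell cannot be told apart. None of the 7 members passed edgeR's quasi-likelihood test with Benjamini-Hochberg adjustment at 0.05, and 0% of 13092 genes did. Before adjustment, edgeR's p was under 0.05 for 392 genes with more and 529 genes with less in CVT mice, none of them a member. The count by DESeq2 was 13 genes. Pools of CVT and SPF mice overlapped for all 7 members, while after edgeR's normalisation they did not overlap for 5.03% of all genes.

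Lyz2 varied most over pools in absolute terms. In KL cells it measured 483, 391, 1452 and 1200 CPM in CVT pools 3 to 6 and 1779, 618, 2667 and 1102 CPM in SPF pools 1, 2, 7 and 8. Pools 2, 3 and 4 were low and pool 7 was high, and the groups overlapped. The log2 fold change of CVT over SPF was -0.77 (SE 0.502, edgeR adjusted p = 0.769), and -0.34 without SPF pool 7.

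The shares of the 2 classes that held most Lyz2 also varied over pools. Without Granulocyte-like cells and the S100a4/Lgals3 cluster the log2 fold change was -0.11. Granulocyte-like cells made up 2.42% to 8.03% of cells in CVT pools and 3.04% to 12.5% in SPF pools, with the highest share in pool 7. The S100a4/Lgals3 cluster made up 0.551% to 3.06% of cells in CVT pools and 1.01% to 4.22% in SPF pools, again highest in pool 7 and lowest in pools 3 and 4. Its share was 1.58% ± 1.22 in CVT and 2.87% ± 1.44 in SPF mice (n = 4 pools each, exact permutation p = 0.229, two-sided). SPF pool 1 had more Lyz2 in KL cells than CVT pools 5 and 6. Its share of Granulocyte-like cells was lower (6.36% against 7.88% and 8.03%), and its share of the S100a4/Lgals3 cluster higher (3.76% against 3.06% and 2.10%). The part of these shares in the Lyz2 level of KL cells was not tested.

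Fn1 followed the same pools. Its KL levels were 1.74, 1.50, 13.8 and 10.0 CPM in CVT pools 3 to 6 and 13.2, 2.62, 22.9 and 7.45 CPM in SPF pools 1, 2, 7 and 8, a 15.2-fold span from the lowest to the highest pool. The log2 fold change was -0.71 (SE 0.779, edgeR adjusted p = 0.869) and 0.41 once the S100a4/Lgals3 cluster was left out. Inside that cluster the levels were 296, 434, 576 and 632 CPM against 511, 324, 706 and 347 CPM, which overlapped.

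**Figure D3:**
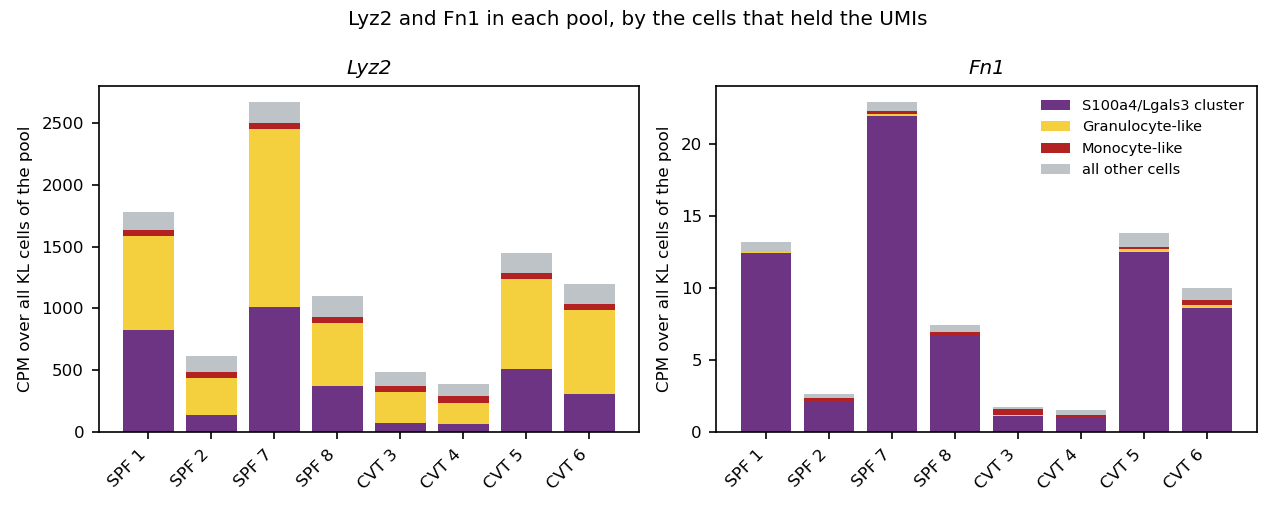
CPM of Lyz2 (left) and Fn1 (right) over all KL cells of each pool, with each bar divided by the cells that held the UMIs (S100a4/Lgals3 cluster, Granulocyte-like, Monocyte-like and all other cells). Bars of SPF pool 2 and CVT pools 3 and 4 are low and that of SPF pool 7 is highest for both genes, and most of each Fn1 bar is from the S100a4/Lgals3 cluster.

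The other members were steadier in KL cells. Ms4a6c spanned 141 to 170 CPM and F13a1 62.2 to 80.7 CPM over the 8 pools, a highest-over-lowest ratio of 1.21 and 1.30. Cfp spanned 21.1 to 31.3 CPM and Ccr2 28.5 to 47.4 CPM. Their log2 fold changes were 0.10, 0.08, 0.02 and -0.13, with edgeR adjusted p-values from 0.766 to 0.985. Without the S100a4/Lgals3 cluster that of Ccr2 was 0.22.

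Ly6c2 in KL cells measured 285, 329, 289 and 321 CPM in CVT pools 3 to 6 and 263, 179, 322 and 251 CPM in SPF pools 1, 2, 7 and 8. SPF pool 7 lay within the CVT range and the other SPF pools below it. The log2 fold change was 0.32 (SE 0.155, edgeR adjusted p = 0.700), and 0.70 without Granulocyte-like cells and the S100a4/Lgals3 cluster. GMP-like cells, which held the most Ly6c2 UMIs in the summed pools, made up 11.8%, 12.7%, 6.96% and 9.10% of cells in CVT pools 3 to 6 and 6.62%, 6.16%, 4.84% and 6.42% in SPF pools 1, 2, 7 and 8. The part of this share in the Ly6c2 level of KL cells, and in the share of cells with a Ly6c2 UMI below, was not tested.

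Pools 1 to 4 held the mice numbered first in the labels and pools 5 to 8 the rest, with 2 pools per housing group in each set, so values were also taken within sets. With the sets as a block the log2 fold change was -0.93 for Lyz2 (edgeR adjusted p = 0.303), -0.97 for Fn1 (0.440) and 0.34 for Ly6c2 (0.337). The difference of the housing effect between the sets was 1.78 for Fn1, 0.87 for Lyz2 and -0.45 for Ly6c2 on the log2 scale (edgeR adjusted p = 0.579, 0.661 and 0.581), and 0% of 13092 genes passed that test. At an unadjusted p under 0.05 there were 505 genes above and 683 below 0.

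Shares of thinned KL cells with a UMI were compared over pools as well. Ly6c2 was seen in 25.6% ± 1.88 of cells in CVT mice and 20.3% ± 3.55 in SPF mice (n = 4 pools each, exact permutation p = 0.0571, two-sided). Ms4a6c was seen in 20.9% ± 2.20 and 17.7% ± 1.48 (exact permutation p = 0.0571). The smallest p that 4 pools against 4 can give over 70 regroupings is 0.0286, and the other 5 members had exact p-values from 0.171 to 0.914. Cells with at least 4 of the 7 genes made up 6.11% ± 0.0914 in CVT and 5.84% ± 1.50 in SPF mice (exact permutation p = 0.657). Monocyte-like cells made up 15.1% ± 3.88 and 10.9% ± 1.94 (exact permutation p = 0.143), with the highest shares in CVT pools 3 (15.7%) and 4 (20.2%).

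Within Monocyte-like cells Ly6c2 was the only member whose CVT and SPF pools did not overlap. It measured 513, 505, 427 and 501 CPM in CVT pools 3 to 6 and 396, 313, 377 and 420 CPM in SPF pools 1, 2, 7 and 8. CVT pool 5 stood just above SPF pool 8, and the other 3 CVT pools stood at 501 CPM or more. The means were 487 ± 40.1 and 376 ± 45.7 CPM, a log2 fold change of 0.42 (SE 0.0785, edgeR unadjusted p = 5.92e-05).

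With Benjamini-Hochberg adjustment over 10526 genes the edgeR adjusted p for Ly6c2 was 0.0729, which did not pass 0.05. The genes that passed numbered 4 (0.038%), all higher in CVT mice, namely Mgst2, Gstm1 and Gdf3 (log2 fold change 0.71, 0.63 and 0.79, edgeR adjusted p = 0.0291) and Hist1h1d (0.97, edgeR adjusted p = 0.0494). Pools did not overlap for 4.86% of all genes, against 1 of the 7 members. Under DESeq2 the adjusted p for Ly6c2 was 0.00367, with pool sets as a block in edgeR 0.00744, and with a coarser clustering 0.273. Leaving out 1 pool at a time gave edgeR adjusted p-values from 0.0247 (without CVT pool 5) to 0.340 (without SPF pool 2) and log2 fold changes from 0.33 to 0.48.

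The direction was the same in each of the 3 Monocyte-like clusters, which were fitted singly after the class result had been seen. In cluster 17 the pools did not overlap (671, 714, 614 and 861 CPM in CVT pools 3 to 6, 576, 409, 471 and 609 CPM in SPF pools 1, 2, 7 and 8) and Ly6c2 passed the test with a log2 fold change of 0.51 (SE 0.102, edgeR adjusted p = 0.0250). Of the 7151 genes tested in that cluster 0.14% passed, and normalised pools did not overlap for 4.24%. In cluster 5 the log2 fold change was 0.47 (edgeR adjusted p = 0.447) and in cluster 8 it was 0.26 (edgeR adjusted p = 0.633). Cluster 5, the lowest in Ly6c2, made up 40.7% ± 5.21 of Monocyte-like cells in CVT and 45.9% ± 3.64 in SPF mice, with pools that overlapped, and the part of this share in the class result was not tested.

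Markers of neighbouring classes were summed in the same Monocyte-like cells. The 9 GMP markers summed to 9566 to 12236 CPM in CVT pools and 9456 to 10165 CPM in SPF pools, and the 11 granulocyte markers to 482 to 1423 and 620 to 1306 CPM. Ly6c2 in MEP-like cells, a level that holds any free RNA, was 24.1 ± 4.44 CPM in CVT and 14.9 ± 4.60 CPM in SPF mice. The CVT over SPF ratio of means was 1.62 in MEP-like and 1.29 in Monocyte-like cells, and the differences were 9.20 and 110 CPM. The parts of free RNA and of GMP transcripts in the Ly6c2 result were not tested.

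**Figure D4:**
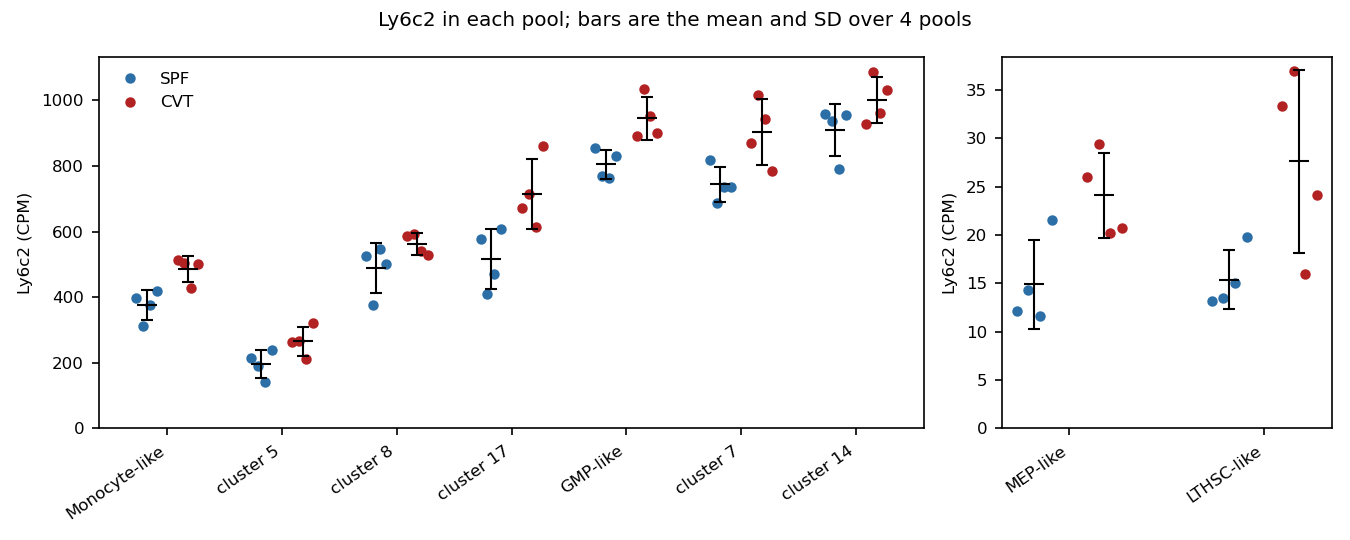
CPM of Ly6c2 in each pool for Monocyte-like cells and their clusters 5, 8 and 17, GMP-like cells and their clusters 7 and 14 (left), and MEP-like and LTHSC-like cells (right, on a smaller scale), with points for pools and bars for the mean and SD over 4 pools. Every CVT pool lies above every SPF pool in Monocyte-like cells, cluster 17 and GMP-like cells, and the groups overlap elsewhere.

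The other 6 members overlapped between the groups in Monocyte-like cells. F13a1 had 243, 191, 216 and 217 CPM in CVT pools and 316, 224, 204 and 241 CPM in SPF pools, with SPF pool 1 the highest. Ms4a6c had 472, 445, 484 and 448 CPM against 589, 464, 436 and 495 CPM, again with SPF pool 1 the highest. Ccr2 ranged from 70.9 to 85.1 CPM in CVT pools and from 61.4 to 113 CPM in SPF pools, and pool 1 once more had the most. Their log2 fold changes were -0.13, -0.06 and -0.08, that of Cfp was -0.05, that of Lyz2 -0.13 and that of Fn1 0.35, with edgeR adjusted p-values from 0.783 to 0.954.

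GMP-like cells showed the same order for Ly6c2. It measured 892, 1036, 952 and 900 CPM in CVT pools 3 to 6 and 856, 770, 763 and 830 CPM in SPF pools 1, 2, 7 and 8, with every CVT pool above every SPF pool. The means were 945 ± 66.4 and 805 ± 45.2 CPM, a log2 fold change of 0.28 (SE 0.0585, edgeR unadjusted p = 1.61e-04, edgeR adjusted p = 0.658). Of the 9649 genes 0% passed in edgeR and 0 in DESeq2, while 305 were higher and 236 lower when edgeR's p was left unadjusted at 0.05. Pools did not overlap for 4.21% of genes, against 1 of the 6 members tested. Cluster 7 alone gave 0.34 (edgeR adjusted p = 0.186) and cluster 14 alone 0.17, neither past the threshold.

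The other 5 members tested in GMP-like cells had log2 fold changes from -0.08 to 0.09, and Fn1 was too low to be tested. Among classes that were not tested, Ly6c2 was higher on average in CVT mice in LTHSC-like cells (27.6 against 15.4 CPM), LMPP-like cells (27.9 against 15.4 CPM) and Megakaryocyte-like cells (26.2 against 12.7 CPM). The same held in CMP-like (27.8 against 15.1 CPM) and Basophil-like cells (27.3 against 17.7 CPM). In that order the CVT over SPF ratio of means was 1.79, 1.81, 2.06, 1.84 and 1.55, each above the 1.29 of Monocyte-like cells. Pools did not overlap in LMPP-like and Megakaryocyte-like cells, and the share over all genes was not computed there. The levels in these classes were close to the MEP-like level, so they are given as values only. The ratio was 2.01 in clusters without a name. Classes with fewer pools went both ways, with ratios of 7.93 in B-like, 0.796 in Dendritic-like and 0.740 in TNK-like cells. Ms4a6c in LTHSC-like cells measured 54.0, 52.5, 46.5 and 53.4 CPM in CVT pools and 23.7, 32.3, 42.3 and 43.6 CPM in SPF pools, which was not tested.

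In Granulocyte-like cells 5 members were tested and 0 passed in edgeR, as did 0% of 7160 genes and 0 in DESeq2. With edgeR's p left unadjusted at 0.05, 209 genes were higher and 200 lower. F13a1 had 20.3, 14.2, 10.7 and 24.5 CPM in CVT pools 3 to 6 and 4.71, 3.93, 8.14 and 9.99 CPM in SPF pools 1, 2, 7 and 8. The groups did not overlap, but the level rested on 188 UMIs in all. The log2 fold change was 1.17 (SE 0.327, edgeR unadjusted p = 0.0025, edgeR adjusted p = 0.833). Ms4a6c had a log2 fold change of 0.70 (edgeR unadjusted p = 0.00416, edgeR adjusted p = 0.833). After edgeR's normalisation pools did not overlap for 2.81% of genes tested, and for 1 of these 5 members, F13a1. In plain CPM the pools of Ms4a6c (43.4 against 26.0 CPM on average in CVT and SPF mice) and Lyz2 did not overlap either. The share over all genes was not computed for plain CPM.

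The cluster led by Retnlg and Mmp8, where both genes were highest among granulocytes, made up 18.97% ± 3.77 of Granulocyte-like cells in CVT and 11.4% ± 8.48 in SPF mice, and its part in these values was not tested. The 16 monocyte markers summed to 1225 to 1282 CPM in CVT pools and 1259 to 1477 CPM in SPF pools of this class. Lyz2 in Granulocyte-like cells measured 10527, 10407, 10960 and 10726 CPM in CVT pools and 16918, 12677, 14568 and 11069 CPM in SPF pools. Every CVT pool was below every SPF pool in CPM, and the log2 fold change was -0.49 (SE 0.186, edgeR unadjusted p = 0.0174, edgeR adjusted p = 0.833). The cluster led by Ifitm6, Ly6g and Ltf, which had the most Lyz2, made up 39.3% ± 7.09 of the class in CVT and 51.6% ± 15.2 in SPF mice, and its part in the Lyz2 values was not tested. Ly6c2 and Cfp had log2 fold changes of -0.14 and -0.19.

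No member passed the test in the S100a4/Lgals3 cluster, which was fitted after it had been seen. All 7 overlapped between CVT and SPF pools, with log2 fold changes from -0.23 for Lyz2 to 0.07 for Fn1 and edgeR adjusted p-values of 0.999. Lyz2 ranged from 18382 to 27585 CPM in CVT and from 19193 to 34080 CPM in SPF pools. Ly6c2 had 1596, 1979, 2224 and 2724 CPM in CVT pools and 2634, 1911, 2495 and 2086 CPM in SPF pools, which is not the order of the Monocyte-like pools, and the difference between the classes was not tested. The 13 dendritic markers summed to 2413 to 10363 CPM in CVT pools and 910 to 4305 CPM in SPF pools of the cluster. The sum was lowest in pool 1 and highest in pool 4. Cells with H2-Aa were lower in Ly6c2. They numbered 11, 6, 19 and 9 in CVT pools 3 to 6, beside 18, 17, 114 and 79 without it. In SPF pools 1, 2, 7 and 8 they numbered 8, 11, 6 and 31, beside 63, 28, 81 and 82. The part of these cells in the Ly6c2 values was not tested. Of 5172 genes 0% passed in edgeR and 0 in DESeq2, with 86 higher and 81 lower before adjustment, and normalised pools did not overlap for 2.38%. The cells in a pool numbered only 23 to 133.

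**Figure D5:**
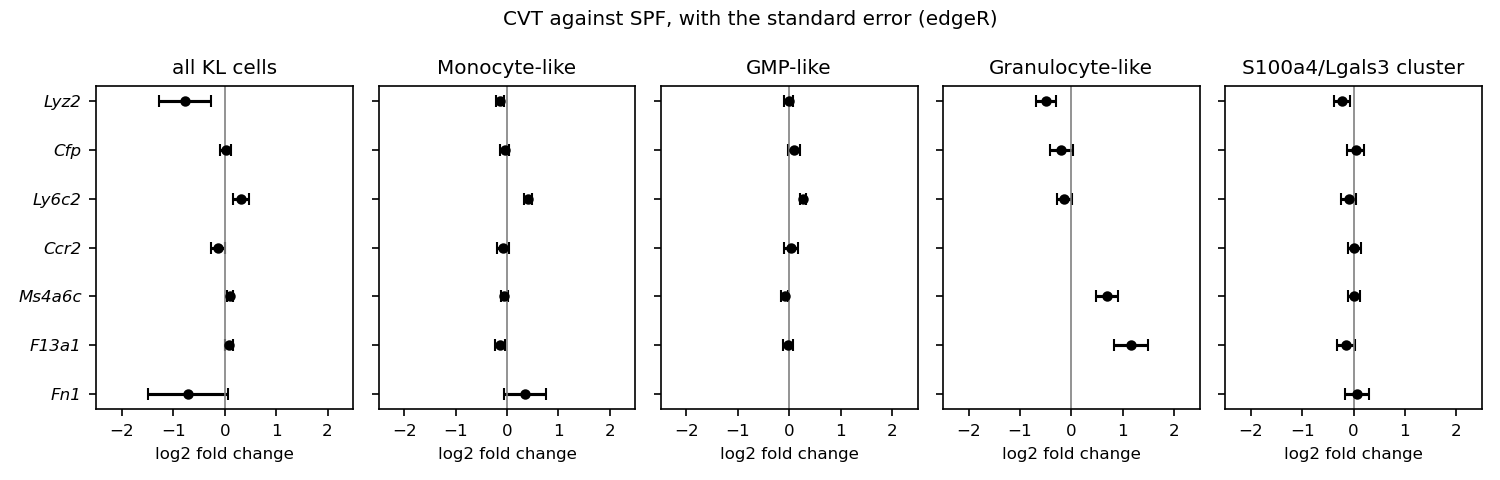
Log2 fold change of CVT over SPF (points) with its standard error (bars, edgeR) for each member tested in all KL cells, Monocyte-like, GMP-like and Granulocyte-like cells and the S100a4/Lgals3 cluster; Fn1 was not tested in GMP-like cells, nor Ccr2 and Fn1 in Granulocyte-like cells. Ly6c2 in Monocyte-like (0.42) and GMP-like cells (0.28) lies farthest from 0 relative to its error, and no member passed an adjusted p of 0.05.

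Other genes of the monocyte lineage were read from a list of 32, which includes growth factor receptors, transcription factors and Fc receptors. None passed edgeR in any of the 5 cell sets. Their median log2 fold change was -0.30 in KL cells, -0.05 in Monocyte-like, 0.12 in GMP-like, -0.19 in Granulocyte-like cells and -0.06 in the S100a4/Lgals3 cluster while the medians of all genes tested lay between -0.01 and 0.01. In KL cells the smallest p-values were those of Clec12a (log2 fold change 0.27), Fcgr1 (-1.29) and Ms4a6d (-0.65), with edgeR adjusted p-values from 0.676 to 0.680. In Monocyte-like cells 3 of 28 were higher and 1 lower when edgeR's p was left unadjusted at 0.05, as were 472 and 336 of all 10526 genes. In GMP-like cells 4 of 27 were higher and 0 lower, beside the 305 and 236 of 9649 given above. The smallest p-values of the list in Monocyte-like cells were those of Fcgr3, an Fc receptor that GMPs also carry, Cd14, the endotoxin co-receptor, and Sirpa. Their log2 fold changes in Monocyte-like cells were 0.54, 0.59 and 0.22 (edgeR adjusted p = 0.119, 0.596 and 0.630).

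Ligands, receptors, partners and paralogs of the members were read from a list of 21 genes that shares 3 with the list of 32, and none passed edgeR in any set. Of these 16 were tested in KL cells, 11 in Monocyte-like, 11 in GMP-like, 8 in Granulocyte-like cells and 10 in the S100a4/Lgals3 cluster. C3, the complement protein whose convertase properdin stabilises, was at 144 CPM in Granulocyte-like cells and 121 CPM in the S100a4/Lgals3 cluster but at 5.62 CPM in Monocyte-like cells. Cfb and Cfd, proteases of the same pathway, were under 1 CPM in each of the classes above. The fibronectin receptor subunits Itga4 and Itgb1 were at 94.1 and 87.3 CPM in the S100a4/Lgals3 cluster and at 107 and 66.0 CPM in MEP-like cells, which had almost no Fn1. Itga5 was at 5.80 CPM and Itgav at 13.1 CPM in the S100a4/Lgals3 cluster.

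Relatives of the members had their own orders. Ms4a4c, Ms4a6b and Ms4a6d were at 442, 274 and 67.0 CPM in the S100a4/Lgals3 cluster and at 26.4, 71.2 and 2.77 CPM in Monocyte-like cells. In the Ly6 family, Ly6e was at 1154 and 693 CPM in these classes, Ly6g was at 478 CPM in Granulocyte-like cells against 1.72 CPM in Monocyte-like cells, and Ly6a, the stem cell antigen Sca-1, was at 106 CPM in LTHSC-like cells. Lyz1 was at 65.4 CPM in the S100a4/Lgals3 cluster and 34.8 CPM in Granulocyte-like cells. F13b, the partner subunit of F13a1 in plasma, had 0 UMIs, Ccl12 had 1 UMI, and the transglutaminase Tgm2 was at 0.249 CPM in Monocyte-like cells.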

How the data were processed

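KL cells were captured in droplets with the Chromium 3′ kit, version 2, and the submitters' processing notes name Cell Ranger and mouse build mm9. The values are UMI counts per gene and cell as deposited by the authors, whole numbers without normalization, and all 29891 cells were used, with 0 columns left out. Cells were assigned to pools through the final number of the cell name, which matches the number in the label of each sample, and every group value rests on that match. The members, the gene lists and the tests were chosen with earlier results of these data known.

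After scaling to 10000 UMIs and a log transform, 1000 variable genes that exclude the members were reduced to 30 principal components, and a graph of 30 neighbours was clustered (scanpy 1.11.5, leidenalg 0.10.2, resolution 2, seed 1). Clusters were named from marker lists written from general knowledge when at least 3 markers stood among their leading 100 genes and no other class had more among the leading 10. UMI counts were summed per class and pool (at least 10 cells) and tested with edgeR 4.0.16 (glmQLFTest, TMM, filterByExpr) at a Benjamini-Hochberg adjusted p of 0.05. DESeq2 1.42.0 was an alternative. Shares of cells were compared by exact permutation tests over pools, and the p-values printed for single genes are unadjusted. The procedure was tested on simulated data. In edgeR a p-value judges a difference between groups against the spread over pools, which is estimated with the help of other genes. A permutation p is the share of regroupings with a difference at least as large. The spread over pools can hold differences in handling as well as between mice. UMIs were not checked against reads, and intervals for single cells were not computed.

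The rule for named genes took the 7 members, a list of 21 partners and paralogs, the 3 genes most like each member over clusters (at least 50 CPM in a cluster), and, of 32 other monocyte genes, those past the threshold or else the 3 with the smallest p in KL and in Monocyte-like cells. Genes that lead clusters and those past the adjusted threshold were named beside them after their values were seen. Alternatives were DESeq2, size factors by RLE, every gene with a UMI, pool sets as a block, each pool left out, resolution 1, the members kept in clustering, no thinning, at least 3 or 5 of the 7 genes, and Granulocyte-like or Monocyte-like cells left out. Removal of the doublet calls was a further alternative. Chosen after seeing the data were the fits of the S100a4/Lgals3 cluster and of single clusters, leaving that cluster out of the KL sums, removal of the highest 5% of doublet scores and shares within pool sets. Promoter windows are from RefSeq on GRCm38.p6 and were matched by symbol, since no coordinates were taken from the deposited counts. A gene of the partner list is not reported here.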

Additional observations from a re-analysis of the deposited data

Results flagged for a closer look

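In 5 of 90 groups of 4 pools a single pool stood apart from the other 3 by Dixon's criterion, and chance gives about 1 in 20 such groups. Ly6c2 in Monocyte-like cells was 427 CPM in CVT pool 5, below the 501 to 513 CPM of the other CVT pools. Without that pool the Ly6c2 log2 fold change was 0.47 (edgeR adjusted p = 0.0247). Cfp in Monocyte-like cells was 68.8 CPM in CVT pool 3, above the 55.2 to 56.4 CPM of the others. Cfp in Granulocyte-like cells was 64.7 CPM in CVT pool 5, above 52.2 to 54.4 CPM. Ccr2 in Granulocyte-like cells was 4.35 CPM in CVT pool 3, below 6.75 to 7.15 CPM, all of which rest on few UMIs. The share of KL cells with a Ccr2 UMI was 7.23% in CVT pool 4, above the 5.57% to 5.78% of the other CVT pools.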

How the results depend on the processing

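Precision is limited by 4 pools per group, by few cells in the S100a4/Lgals3 cluster and by low counts of Fn1, Ccr2 and F13a1 outside their main classes. The cause of each change below was not tested unless fewer cells or pools entered. Of 716 values under alternatives, 630 kept their direction and their side of the threshold. Where the main result was far from the threshold, keeping a side says little. The count includes runs without the doublet calls, which left out only 0.308% of all cells.

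The number of genes called in KL cells was 13 with DESeq2 and 4 with pool sets as a block. In Monocyte-like cells it was 72 with every gene that had a UMI, 16 with DESeq2, 38 with the block, 0 at resolution 1, 1 with the members in clustering, 1 and 10 in clusters 5 and 17 alone, and 0 to 15 with 1 pool left out. In GMP-like cells it was 37 without the filter, 1 with the block and 0 to 1 with 1 pool left out, in Granulocyte-like cells 28 without the filter, and in the S100a4/Lgals3 cluster 17 without the filter and 0 to 1 with 1 pool left out. Without the filter Ly6c2 passed in Monocyte-like (adjusted p = 1.23e-06) and GMP-like cells (0.00182) and F13a1 in Granulocyte-like cells (0.0174, edgeR), where F13a1 was too low for the filter once the highest doublet scores were removed.

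Log2 fold changes that turned sign were mostly near 0. In KL cells Fn1 was 0.41 without the S100a4/Lgals3 cluster and 0.32 without granulocytes as well, Ccr2 was 0.22 and 0.21, and Cfp was -0.069 without Monocyte-like cells. At resolution 1 Fn1 was -0.14 and Cfp 0.0080 in Monocyte-like cells, and F13a1 was 0.18 and Ms4a6c 0.056 in GMP-like cells, where F13a1 was 0.044 with the members in clustering. In the S100a4/Lgals3 cluster Ccr2 was -0.028 without the filter and -4.99e-05 with DESeq2, and Ms4a6c was -0.0062 with RLE, -0.038 without the filter and -0.0079 with DESeq2. With 1 pool left out, Cfp in KL cells ranged from -0.077 to 0.11, Ccr2 and Ms4a6c in Monocyte-like cells from -0.18 to 0.036 and from -0.10 to 0.021, Lyz2, Ccr2 and F13a1 in GMP-like cells from -0.079 to 0.033, -0.073 to 0.17 and -0.092 to 0.081, Cfp in Granulocyte-like cells from -0.40 to 0.10, and Fn1, Cfp, Ccr2, Ly6c2 and Ms4a6c in the S100a4/Lgals3 cluster from -0.089 to 0.34, -0.059 to 0.16, -0.065 to 0.079, -0.24 to 0.024 and -0.066 to 0.082.

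Differences in share, CVT minus SPF, turned sign for Cfp when not thinned (1.72 percentage points) or without granulocytes (0.166), for Ccr2 without granulocytes (-0.0413) and in pools 5 to 8 alone (-0.105), and for cells with several members in pools 1 to 4 alone (-0.00352) and at 5 of 7 genes (-0.720). With 1 pool left out, that for Cfp ranged from -0.734 to 0.233, for Ccr2 from -0.369 to 0.657, and for at least 4 genes from -0.246 to 0.936, the last without SPF pool 1 (exact permutation p = 0.0286). No paired analysis was possible because CVT and SPF pools share no replicate numbers.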
